A study of Rattus norvegicus with 8 samples.

Results

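The genes described here are those of the major histocompatibility complex (MHC) and of antigen processing in rat dorsal root ganglia, where sensory neurons have their cell bodies among satellite glia and immune cells. They were chosen by symbol alone. A gene was a member if its symbol began with RT1-, the name of the rat MHC, or was Ciita, Cd74, B2m, Tap1, Tap2, Tapbp, Nlrc5, Psmb8, Psmb9 or Psmb10, in either of the 2 tables that the authors deposited. The rule found 34 genes among the 4351 genes of both tables, 33 of the 4136 genes listed for IMQ against WT and 14 of the 775 listed for lidocaine against IMQ. 13 members were in both tables, RT1-Db2 was in the lidocaine table only, and Psmb10 was in neither. The RT1 members are 14 class I genes and 11 class II genes. The others are 6 genes of the class I machinery, the class II chaperone gene Cd74 and the regulators Ciita and Nlrc5. RT1-CE16 and RT1-DMb each stand for 2 gene identifiers, which are given separately.

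All rats were Sprague Dawley, an outbred stock, of 250 g body weight. In the lidocaine group (n = 2), imiquimod (IMQ), which activates a Toll-like receptor of innate immune cells and gives a psoriasis-like skin inflammation, was applied to the back skin for 6 days, and 1% lidocaine, a local anaesthetic that blocks sodium channels, was injected epidurally for 4 days from day 3. The IMQ group (n = 3) had the same imiquimod course without lidocaine. The WT group (n = 3) was untreated. Tissue was taken on day 7. The comparisons ask how the ganglia respond to the skin inflammation and to the anaesthetic given on top of it. The labels name no group with a vehicle on the skin or an epidural injection without lidocaine, so the drugs and their application cannot be told apart. Samples are numbered within a group, and the labels leave unsaid whether these are different rats, so the p-values speak of the spread between samples, which may be technical.

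MHC class I molecules sit on nearly all nucleated cells and present peptides from inside the cell to CD8+ T cells. The proteasome cuts the peptides, the TAP transporter carries them into the endoplasmic reticulum, tapasin loads them, and beta-2 microglobulin completes the molecule. MHC class II molecules are made mainly by dendritic cells, macrophages and B cells and present peptides from endosomes to CD4+ T cells, with the invariant chain (Cd74) as the chaperone and DM as the peptide exchanger. Interferon gamma raises both classes, through NLRC5 for class I and through CIITA for class II. RT1 genes are highly polymorphic, and many class I copies resemble each other closely.

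Values below are levels as log2(normalized count + 1) in single libraries, as deposited, and a difference is one group mean less the other on this scale, which understates changes of low genes. Both tables list only genes whose group means differed by at least 1.00, so that a member's being listed, and its direction, was part of the selection. Tests are limma over all listed genes of a table with Benjamini-Hochberg adjustment and a threshold of 0.05. Reads recovered from the values summed to 4311091 to 9035486 per library over the genes listed for IMQ against WT and to 254922 to 778890 over those listed for lidocaine against IMQ. As a check of the tissue, Nefm, a neurofilament gene of sensory neurons, was at 17.62 ± 0.02 in IMQ libraries and 18.67 ± 0.33 in WT libraries (SD, n = 3 each). How reads of near-identical RT1 copies were shared out is not stated, so that the split between such copies, and between overlapping genes, is uncertain. IMQ library 1 stood apart from the other IMQ libraries for some RT1 genes, described below, and the differences of those genes are also given without it.

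Stretches of the members' promoters are shown for the motifs through which class I and class II genes are known to be switched on. Windows reach from 250 bases before to 50 bases after the gene start, are taken from RefSeq on the GRCr8 build, and were found by symbol for 27 of the 32 member symbols. Each motif was searched on both strands. The X box core AGCAAC was in 14.7% of all 33469 promoter windows, and the Y box core CCAAT, which reads ATTGG on the other strand, was in 37.5%. Class II promoters are known for an X box followed by a Y box, the sites at which the complex that recruits CIITA binds. The ordered pair, AGCAAC followed 15 to 35 bases further on the same strand by ATTGG, was in 6 of the 9 class II windows, in 0 of the 11 class I windows, in 0 of the 6 windows of the class I machinery and not in that of Cd74, which held both cores without this order or spacing. It was in 109 of all windows, or 0.326%. This definition of the pair was chosen after the windows had been seen. In the stretches below, the capitals mark the X core and then the Y core, with 25 to 28 bases between them.
RT1-Da (chr20:4515326-4515376, plus strand): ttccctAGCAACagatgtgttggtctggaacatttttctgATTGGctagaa
RT1-Db1 (chr20:4560232-4560281, minus strand): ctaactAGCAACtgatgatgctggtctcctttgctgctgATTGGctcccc
RT1-Db2 (chr20:4541702-4541750, minus strand): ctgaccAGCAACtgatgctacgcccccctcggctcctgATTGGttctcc
RT1-DOa (chr20:4758520-4758570, minus strand): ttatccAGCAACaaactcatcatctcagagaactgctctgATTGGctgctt
RT1-DOb (chr20:4627596-4627643, minus strand): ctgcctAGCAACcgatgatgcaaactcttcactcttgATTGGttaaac
RT1-Ha (chr20:4772243-4772293, minus strand): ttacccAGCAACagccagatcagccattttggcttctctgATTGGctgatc
The windows of RT1-Ba, RT1-Bb and RT1-DMa held CCAAT without the X core letters. CCAAT alone was in 9 of the 9 class II windows, 10 of the 11 class I windows and 3 of the 6 windows of the class I machinery.

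The core of the interferon-stimulated element, GAAA followed after any 2 bases by GAAA, was in 3.92% of all windows. It was in 5 of the 6 windows of the class I machinery, in 2 of the 11 class I windows and in 0 of the 9 class II windows. Below, the capitals mark this core, which stands on the other strand where it begins with TTTC. The match of Psmb8 reaches past the gene start or lies beyond it and is not shown.
B2m (chr3:129549168-129549201, plus strand): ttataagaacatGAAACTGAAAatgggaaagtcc
Tap1 (chr20:4668643-4668676, minus strand): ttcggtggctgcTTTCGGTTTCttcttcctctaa
Tap2 (chr20:4652316-4652349, minus strand): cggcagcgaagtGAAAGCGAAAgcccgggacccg
Tapbp (chr20:4967882-4967915, minus strand): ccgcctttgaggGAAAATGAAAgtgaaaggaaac
RT1-S3 (chr20:2675404-2675437, plus strand): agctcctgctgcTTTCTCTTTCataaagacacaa
RT1-N3 (chr20:2666270-2666303, plus strand): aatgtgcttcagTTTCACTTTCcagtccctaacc
Tap1 and Psmb9 lie head to head, on the minus and the plus strand, and their windows share 44 bases at their upstream ends. A match within these shared bases would count for both genes, and the Tap1 match shown lies outside them. The NF-kB-like core GGGNNTTCC was in 5.92% of all windows and in 5 of the 11 class I windows, 2 of the 9 class II windows, the window of Cd74 and 0 of the 6 windows of the class I machinery. The capitals mark it in the class I stretches below, and the letters GGGGATTCC were the same in all 5.
RT1-A1 (chr20:4907071-4907103, plus strand): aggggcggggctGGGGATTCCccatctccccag
RT1-A2 (chr20:4872685-4872717, plus strand): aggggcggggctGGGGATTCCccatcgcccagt
RT1-CE10 (chr20:3385153-3385185, minus strand): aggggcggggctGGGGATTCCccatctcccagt
RT1-CE16 (chr20:3265554-3265586, minus strand): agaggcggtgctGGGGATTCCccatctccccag
RT1-CE4 (chr20:3509330-3509362, minus strand): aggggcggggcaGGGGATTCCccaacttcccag
A match is a run of letters and was not tested as a binding site. In RefSeq's order on chromosome 20, RT1-Da, RT1-Db2, RT1-Db1, RT1-Ba, RT1-Bb, RT1-DOb, Tap2, Psmb8, Tap1, Psmb9, RT1-DMb, RT1-DMa, RT1-DOa and RT1-Ha stand in 1 run of 17 genes, of which 3 are not members.

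In IMQ ganglia, 33 of 33 listed members were higher than in WT ganglia, 32 passed the test, and 32 had IMQ libraries all above the WT libraries. Over the whole table, 58.9% of genes were called higher in IMQ and 57% did not overlap in that direction. The median difference was 2.41 for the 14 class I genes, 2.58 for the 10 class II genes and 2.26 for the 7 genes of the class I machinery with Nlrc5, beside 1.89 for all 2528 listed genes higher in IMQ. Without IMQ library 1, the class I and class II medians were 2.66 and 2.73, and 30 members were called. In lidocaine ganglia, 14 of 14 listed members were lower than in IMQ ganglia, passed the test and did not overlap, where 87.1% of the table was called lower in lidocaine and 89.2% did not overlap. Class II made up 9 of these 14, class I 3, and the class I machinery and Nlrc5 none. Members not listed there have no lidocaine values, so whether lidocaine left them unchanged is unknown. Of the genes listed for IMQ against WT, 560 of 4136 were also listed for lidocaine, and 13 of the 33 members. The median difference of lidocaine from IMQ was -1.69 for the 3 class I genes and -2.06 for the 9 class II genes, beside -1.52 for the 702 listed genes lower in lidocaine, and for these classes it was -2.28 and -2.34 without IMQ library 1. In whole ganglia, more cells of a type and more RNA per cell cannot be told apart.

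**Figure D1:**
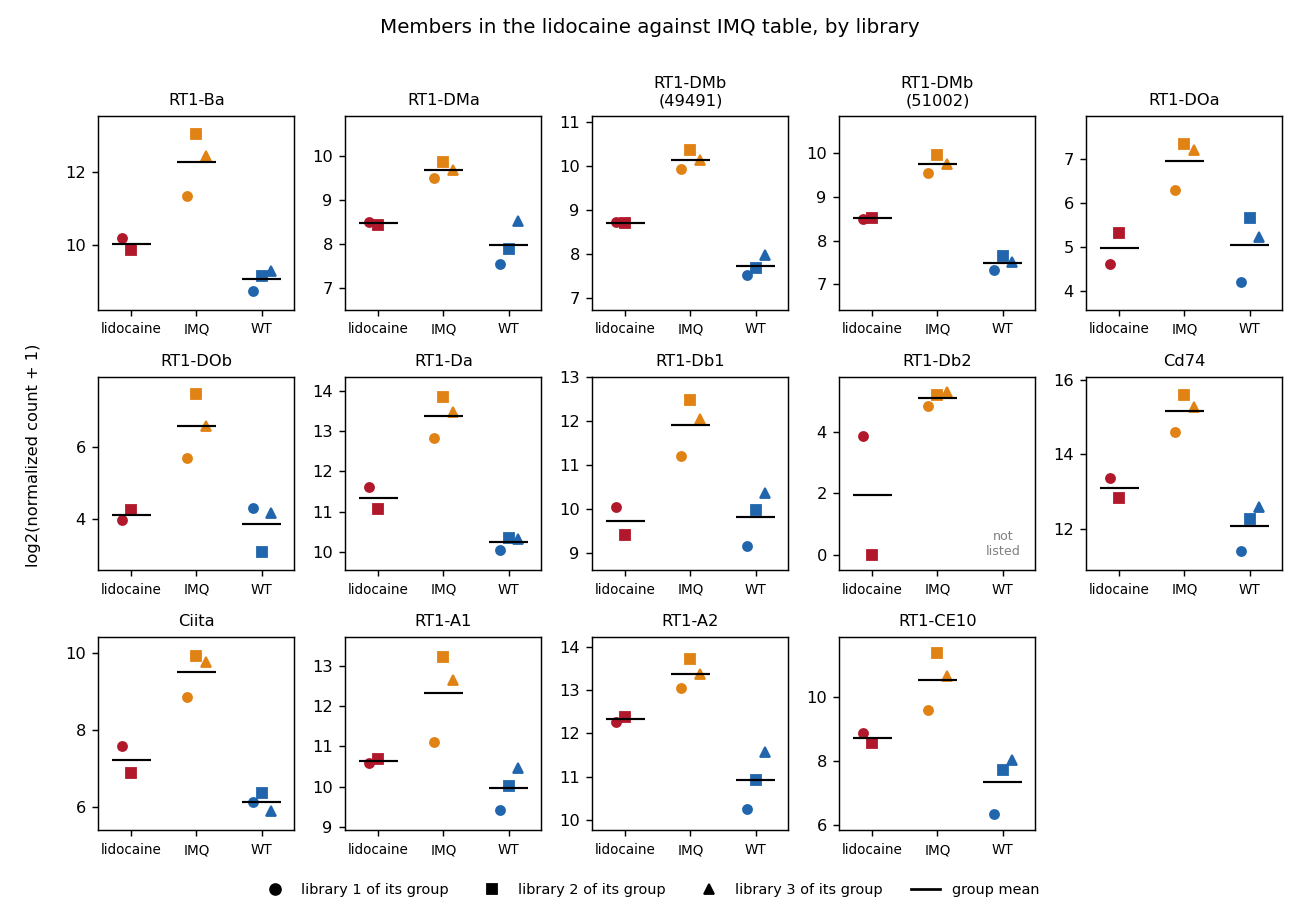
Levels of the 14 members listed for lidocaine against IMQ, as log2(normalized count + 1), in each library (point shape gives the library number) with the group mean as a line, for lidocaine (n = 2), IMQ (n = 3) and WT (n = 3). The lidocaine points lie below all IMQ points in each panel, and for RT1-Db1, RT1-DOa, RT1-DOb and RT1-DMa they overlap with the WT points.

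The classical class II molecules of the rat are B and D, each a pair of an alpha and a beta chain. RT1-Ba (ENSRNOG00000000451), the alpha chain of the B molecule, was at 10.19 and 9.86 in the lidocaine libraries, at 11.35, 13.04 and 12.45 in the IMQ libraries and at 8.72, 9.15 and 9.27 in the WT libraries. All 3 groups were separate. Its level rose by 3.24 ± 0.44 (SE) in IMQ over WT, a 9.43-fold difference (limma adjusted p = 0.00109), and fell by 2.26 ± 0.49 in lidocaine relative to IMQ (limma adjusted p = 0.00769). Without IMQ library 1, the differences were 3.70 and -2.73. The beta chain gene RT1-Bb (ENSRNOG00000032708) was at 9.23, 13.56 and 13.02 in the IMQ libraries and at 7.00, 8.36 and 8.43 in the WT libraries, and it was not listed for lidocaine. IMQ library 1 lay 3.79 below the nearer of the other IMQ libraries and 0.80 above the highest WT library. The difference of RT1-Bb was 4.01 ± 1.08 (limma adjusted p = 0.013), and 5.36 without IMQ library 1.

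The D molecule is made of the alpha chain RT1-Da and beta chains such as RT1-Db1. RT1-Da (ENSRNOG00000032844) was at 11.61 and 11.06 in the lidocaine libraries, at 12.83, 13.87 and 13.49 in the IMQ libraries and at 10.04, 10.35 and 10.31 in the WT libraries. RT1-Db1 (ENSRNOG00000033215) was at 10.04 and 9.41 in the lidocaine libraries, at 11.21, 12.48 and 12.05 in the IMQ libraries and at 9.15, 9.97 and 10.36 in the WT libraries. Lidocaine libraries stood between the other groups for the alpha chain and within the WT range for the beta chain. RT1-Da rose by 3.16 ± 0.31 in IMQ (limma adjusted p = 0.000299) and RT1-Db1 rose by 2.09 ± 0.43 (limma adjusted p = 0.00541). In lidocaine relative to IMQ they fell, with differences of -2.06 ± 0.39 and -2.19 ± 0.42 (limma adjusted p = 0.00571 and 0.00574). RT1-Db2 (ENSRNOG00000030431), a further beta chain gene, was low, at 3.86 and 0.00 in the lidocaine libraries and at 4.84, 5.20 and 5.30 in the IMQ libraries. Its difference of -3.18 ± 1.05 (limma adjusted p = 0.0258) was -1.25 without lidocaine library 2, the library at 0, and then missed the threshold (limma adjusted p = 0.0522). In a fit with 1 lidocaine library the spread within groups comes from the IMQ libraries alone, and the lone library is taken to vary like them. It also missed it without IMQ library 1 or 3 (limma adjusted p = 0.0566 and 0.0505), and with a pseudocount of 0.1, where the difference was -4.85 (limma adjusted p = 0.0544). With a pseudocount of 10 the difference was -1.51, and without lidocaine library 1, with only the library at 0 left, it was -5.12.

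DM exchanges peptides on class II molecules and DO restrains it. RT1-DMa (ENSRNOG00000047864) was at 8.50 and 8.43 in the lidocaine libraries, at 9.49, 9.86 and 9.67 in the IMQ libraries and at 7.55, 7.89 and 8.51 in the WT libraries. RT1-DMb under ENSRNOG00000049491 was at 8.74 and 8.70 in the lidocaine libraries, at 9.94, 10.36 and 10.15 in the IMQ libraries and at 7.52, 7.68 and 7.99 in the WT libraries. Under ENSRNOG00000051002 it was at 8.50 and 8.51 in the lidocaine libraries, at 9.54, 9.94 and 9.74 in the IMQ libraries and at 7.32, 7.64 and 7.52 in the WT libraries. The DM genes had the tightest libraries of the class II genes in both treated groups. They rose by 1.69 ± 0.32, 2.42 ± 0.26 and 2.25 ± 0.26 in IMQ over WT (limma adjusted p = 0.00395, 0.00045 and 0.000549), and fell in lidocaine relative to IMQ, with differences of -1.21 ± 0.22, -1.43 ± 0.22 and -1.24 ± 0.22 (limma adjusted p = 0.00518, 0.0042 and 0.00508). These 3 were the smallest lidocaine differences among the class II genes.

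For DO, RT1-DOa (ENSRNOG00000026762) was at 4.61 and 5.32 in the lidocaine libraries, at 6.29, 7.34 and 7.21 in the IMQ libraries and at 4.20, 5.66 and 5.23 in the WT libraries. RT1-DOb (ENSRNOG00000000454) was at 3.98 and 4.24 in the lidocaine libraries, at 5.69, 7.48 and 6.60 in the IMQ libraries and at 4.31, 3.07 and 4.17 in the WT libraries. The lidocaine libraries overlapped with the WT libraries for both genes, and IMQ stood above all of them. RT1-DOa rose by 1.92 ± 0.50 and RT1-DOb by 2.74 ± 0.57 in IMQ (limma adjusted p = 0.0117 and 0.00556), and they fell in lidocaine relative to IMQ, with differences of -1.98 ± 0.44 and -2.48 ± 0.55 (limma adjusted p = 0.00811 and 0.00806). RT1-Ha (ENSRNOG00000026669), a class II alpha chain gene, was near the floor, at 3.24, 3.32 and 3.67 in the IMQ libraries and at 0.00, 1.69 and 0.00 in the WT libraries (difference 2.85 ± 0.55, limma adjusted p = 0.0044). Its difference depended on the pseudocount, at 5.09 with 0.1 and 0.88 with 10, and the call was made with both.

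Cd74 (ENSRNOG00000018735), the invariant chain, was at 13.36 and 12.83 in the lidocaine libraries, at 14.60, 15.59 and 15.28 in the IMQ libraries and at 11.40, 12.27 and 12.60 in the WT libraries. Ciita (ENSRNOG00000002659), the coactivator that class II genes need, was at 7.60 and 6.88 in the lidocaine libraries, at 8.85, 9.92 and 9.77 in the IMQ libraries and at 6.15, 6.36 and 5.90 in the WT libraries. No pair of groups overlapped for either gene, with lidocaine in the middle. Cd74 rose by 3.07 ± 0.40 and Ciita by 3.37 ± 0.37 in IMQ over WT (limma adjusted p = 0.000915 and 0.000439). In lidocaine relative to IMQ, Cd74 fell by 2.07 ± 0.45 and Ciita by 2.27 ± 0.40 (limma adjusted p = 0.00761 and 0.00492). With 1 lidocaine library in the fit, so that IMQ alone gave the spread within groups, fewer calls were made. Leaving out lidocaine library 1 ended the lidocaine calls of RT1-Ba, RT1-DOa and RT1-DOb (limma adjusted p = 0.0693, 0.0799 and 0.0842). Leaving out lidocaine library 2 ended those of RT1-Ba, RT1-DOb, RT1-Db1 and Cd74 (limma adjusted p = 0.079, 0.0606, 0.0576 and 0.0611). The calls of RT1-Da, RT1-DMa, both RT1-DMb identifiers and Ciita were also made in each of these fits.

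Class I genes with a lidocaine value were the classical genes RT1-A1 and RT1-A2 and the C/E region gene RT1-CE10. RT1-A1 (ENSRNOG00000038999) was at 10.58 and 10.69 in the lidocaine libraries, at 11.12, 13.22 and 12.65 in the IMQ libraries and at 9.41, 10.01 and 10.46 in the WT libraries. RT1-A2 (ENSRNOG00000030712) was at 12.27 and 12.38 in the lidocaine libraries, at 13.04, 13.72 and 13.36 in the IMQ libraries and at 10.27, 10.93 and 11.57 in the WT libraries. RT1-CE10 (ENSRNOG00000050210) was at 8.86 and 8.57 in the lidocaine libraries, at 9.59, 11.35 and 10.63 in the IMQ libraries and at 6.34, 7.71 and 8.02 in the WT libraries. Lidocaine libraries lay between the IMQ and the WT libraries for each of the 3 genes, by as little as 0.12 above WT and 0.43 below IMQ for RT1-A1. In IMQ over WT the genes rose by 2.37 ± 0.55, 2.45 ± 0.37 and 3.17 ± 0.58 (limma adjusted p = 0.008, 0.00168 and 0.00364). In lidocaine relative to IMQ they fell, with differences of -1.69 ± 0.59, -1.05 ± 0.32 and -1.81 ± 0.49 (limma adjusted p = 0.0306, 0.0199 and 0.0149). With lidocaine library 1 left out the differences were -1.64, -0.9985 and -1.95, and with lidocaine library 2 left out they were -1.75, -1.11 and -1.66. None of the 3 was called in these fits, in which lidocaine had 1 library and no spread of its own (limma adjusted p = 0.064 to 0.192). Without IMQ library 3, RT1-A1 and RT1-A2 were not called either (limma adjusted p = 0.0725 and 0.0816). Without IMQ library 1, RT1-A1 and RT1-CE10 differed by 2.97 and 3.63 in IMQ over WT and by -2.30 and -2.28 in lidocaine relative to IMQ, and all 4 differences were called.

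**Figure D2:**
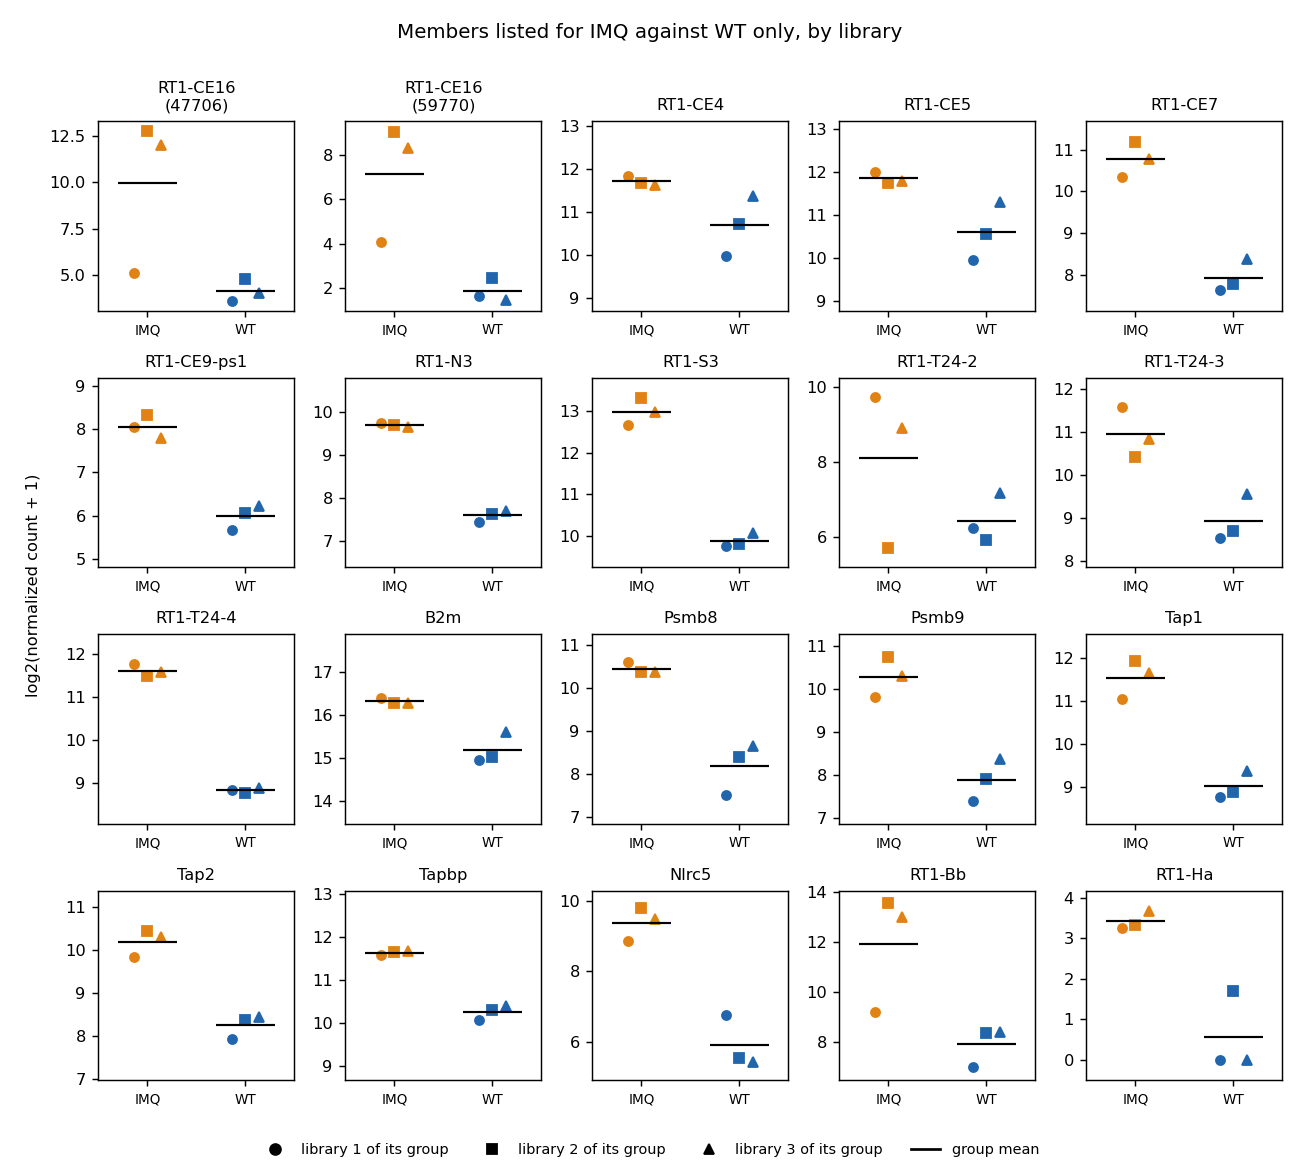
Levels of the 20 members listed for IMQ against WT only, as log2(normalized count + 1), in each IMQ and WT library (n = 3 each, point shape gives the library number) with the group mean as a line. IMQ and WT libraries are separate in each panel except RT1-T24-2, and IMQ library 1 stands near WT for RT1-CE16 and RT1-Bb.

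The other 11 class I genes were listed for IMQ against WT only. The widest spread was in RT1-CE16, which was at 5.12, 12.78 and 12.02 in the IMQ libraries and at 3.57, 4.79 and 4.02 in the WT libraries under ENSRNOG00000047706. Under ENSRNOG00000059770 it was at 4.06, 9.01 and 8.30 in the IMQ libraries and at 1.66, 2.44 and 1.48 in the WT libraries. IMQ library 1 lay far below the other IMQ libraries under both identifiers. The differences, 5.85 ± 1.84 and 5.26 ± 1.21 (limma adjusted p = 0.0204 and 0.00757), were 8.28 and 6.79 without that library. The first was not called without IMQ library 2 (4.44, limma adjusted p = 0.0733), IMQ library 3 (4.83, limma adjusted p = 0.0648) or WT library 2 (6.18, limma adjusted p = 0.0533).

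RT1-T24-2 (ENSRNOG00000000787), a non-classical gene, ran the other way among the IMQ libraries, at 9.75, 5.71 and 8.90, against 6.24, 5.93 and 7.18 in the WT libraries. It was the 1 member whose groups overlapped and the 1 that missed the threshold (difference 1.67 ± 0.98, limma adjusted p = 0.131). Without IMQ library 1, 2 or 3 the difference was 0.86, 2.88 and 1.28 (limma adjusted p = 0.412, 0.00935 and 0.298), so that among the fits with 1 library left out it was called only without the lowest one. RT1-T24-3 (ENSRNOG00000045924) had the same order of libraries in a narrower span, at 11.58, 10.43 and 10.84 in the IMQ libraries and at 8.55, 8.70 and 9.56 in the WT libraries. RT1-T24-4 (ENSRNOG00000042905) was tight in both groups, at 11.76, 11.50 and 11.57 in the IMQ libraries and at 8.85, 8.76 and 8.89 in the WT libraries, a 6.85-fold difference (2.78 ± 0.22, limma adjusted p = 0.000136).

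The non-classical genes RT1-S3 and RT1-N3 also had close libraries. RT1-S3 (ENSRNOG00000000777) was at 12.67, 13.31 and 12.99 in the IMQ libraries and at 9.74, 9.81 and 10.06 in the WT libraries, a rise of 3.12 ± 0.25 (limma adjusted p = 0.000156). RT1-N3 (ENSRNOG00000000795) was at 9.73, 9.69 and 9.63 in the IMQ libraries and at 7.44, 7.63 and 7.69 in the WT libraries, a rise of 2.10 ± 0.24 (limma adjusted p = 0.000549). Both genes were separate from WT in all 3 IMQ libraries. RT1-CE7 (ENSRNOG00000031090) rose by 2.84 ± 0.33 and the pseudogene RT1-CE9-ps1 (ENSRNOG00000061998) by 2.08 ± 0.32 (limma adjusted p = 0.000588 and 0.00175).

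The smallest class I differences were those of the C/E region genes RT1-CE4 and RT1-CE5. RT1-CE4 (ENSRNOG00000039744) was at 11.85, 11.69 and 11.63 in the IMQ libraries and at 9.98, 10.73 and 11.39 in the WT libraries. RT1-CE5 (ENSRNOG00000000723) was at 12, 11.74 and 11.79 in the IMQ libraries and at 9.94, 10.55 and 11.29 in the WT libraries. The IMQ libraries were close together and the WT libraries spread over more than 1 log2 unit, with WT library 3 just below IMQ. RT1-CE4 differed by 1.02 ± 0.36 and RT1-CE5 by 1.25 ± 0.36 (limma adjusted p = 0.03 and 0.0155). Without WT library 2, or without IMQ library 1, neither was called (limma adjusted p = 0.053 to 0.0861). RT1-CE4 was also not called without IMQ library 2 or 3 (limma adjusted p = 0.0772 and 0.0716). Without WT library 1, the lowest, it differed by 0.67 (limma adjusted p = 0.0279).

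In the class I machinery, the immunoproteasome subunits and the peptide transporter had differences of 1.94 to 2.52, beside 1.13 and 1.38 for beta-2 microglobulin and tapasin, a contrast that was not tested. Psmb8 (ENSRNOG00000000456) was at 10.60, 10.37 and 10.38 in the IMQ libraries and at 7.51, 8.41 and 8.66 in the WT libraries. Psmb9 (ENSRNOG00000000459) was at 9.82, 10.74 and 10.30 in the IMQ libraries and at 7.40, 7.90 and 8.38 in the WT libraries. These catalytic subunits of the immunoproteasome, separate from WT in every IMQ library, rose by 2.26 ± 0.34 and 2.39 ± 0.36 (limma adjusted p = 0.00172 and 0.0017). Tap1 (ENSRNOG00000000457) was at 11.06, 11.93 and 11.65 in the IMQ libraries and at 8.78, 8.90 and 9.38 in the WT libraries. Tap2 (ENSRNOG00000000455) was at 9.85, 10.44 and 10.31 in the IMQ libraries and at 7.93, 8.37 and 8.46 in the WT libraries. These subunits of the transporter were likewise separate and rose by 2.52 ± 0.31 and 1.94 ± 0.28 (limma adjusted p = 0.000765 and 0.0015).

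B2m (ENSRNOG00000017123), beta-2 microglobulin, was at 16.40, 16.29 and 16.28 in the IMQ libraries and at 14.96, 15.02 and 15.60 in the WT libraries. Tapbp (ENSRNOG00000029500), tapasin, was at 11.58, 11.66 and 11.68 in the IMQ libraries and at 10.08, 10.31 and 10.39 in the WT libraries. The IMQ libraries of these genes lay close together, with SDs of 0.06 and 0.05, and above all WT libraries. B2m rose by 1.13 ± 0.26, a 2.19-fold difference, and Tapbp by 1.38 ± 0.22 (limma adjusted p = 0.00789 and 0.00191). Nlrc5 (ENSRNOG00000048222), the class I coactivator, was at 8.87, 9.79 and 9.48 in the IMQ libraries and at 6.75, 5.55 and 5.42 in the WT libraries, with WT library 1 the highest of its group. It rose by 3.47 ± 0.45, an 11.1-fold difference (limma adjusted p = 0.000915), close in size to the 10.4-fold difference of Ciita.

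**Figure D3:**
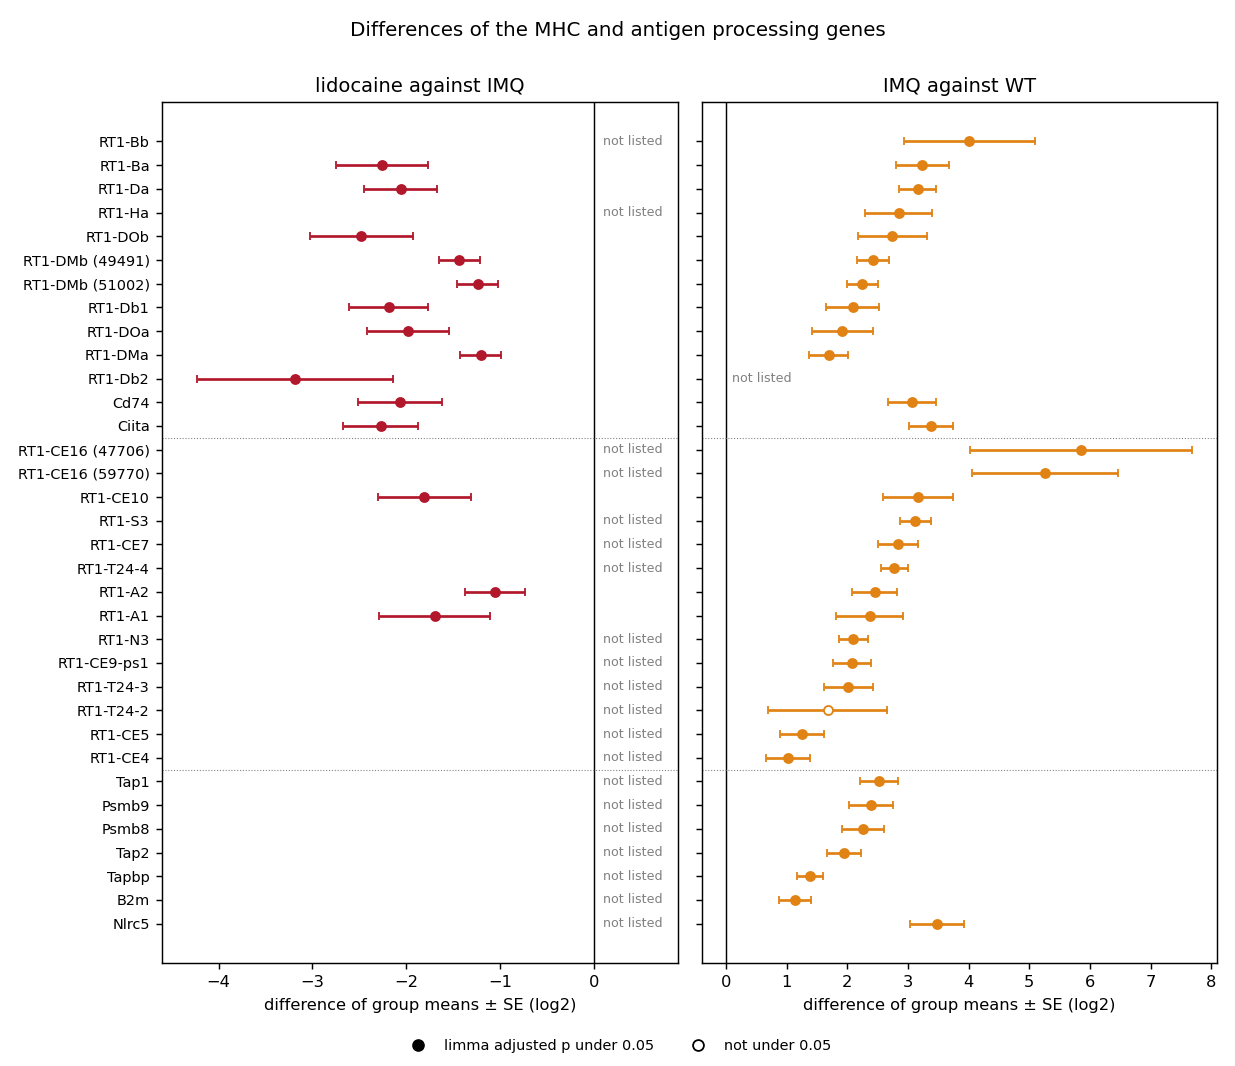
Differences between group means (points) with their limma SE (bars) on the log2(normalized count + 1) scale, for lidocaine against IMQ on the left and IMQ against WT on the right, with class II genes at the top, class I genes in the middle and the class I machinery and Nlrc5 at the bottom. Filled points passed the threshold, which all do except RT1-T24-2, and the lower rows on the left are not listed.

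Class I and class II were set side by side in each library as the summed normalized count of class II over that of class I. Over the 8 class II and 3 class I genes in both tables, this ratio was 0.943 and 0.670 in the lidocaine libraries, 1.30, 1.27 and 1.32 in the IMQ libraries and 1.31, 1.12 and 0.860 in the WT libraries. Both lidocaine libraries lay below the IMQ libraries, and the WT libraries spanned the values from below lidocaine library 1 up to the IMQ range. Each of these genes was included through a difference of at least 1.00 between lidocaine and IMQ, so this contrast rests on selected values. In IMQ libraries 1, 2 and 3 the 3 class I genes held 11433, 25644 and 18529 normalized counts. All 14 listed class I genes held 35595, 57816 and 45947 there. Over the 10 class II and 14 class I genes listed for IMQ against WT, the ratio was 0.433, 0.774 and 0.711 in the IMQ libraries and 0.443, 0.448 and 0.339 in the WT libraries. IMQ libraries 2 and 3 were above all WT libraries and IMQ library 1 was within their range. The mean log2 level of class II minus class I, which weights genes equally, was -1.17, -0.85 and -1.12 in these IMQ libraries and -0.94, -0.84 and -1.12 in the WT libraries, which overlapped. The ratio of sums thus follows the genes with the highest counts, and no test was run on it.

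**Figure D4:**
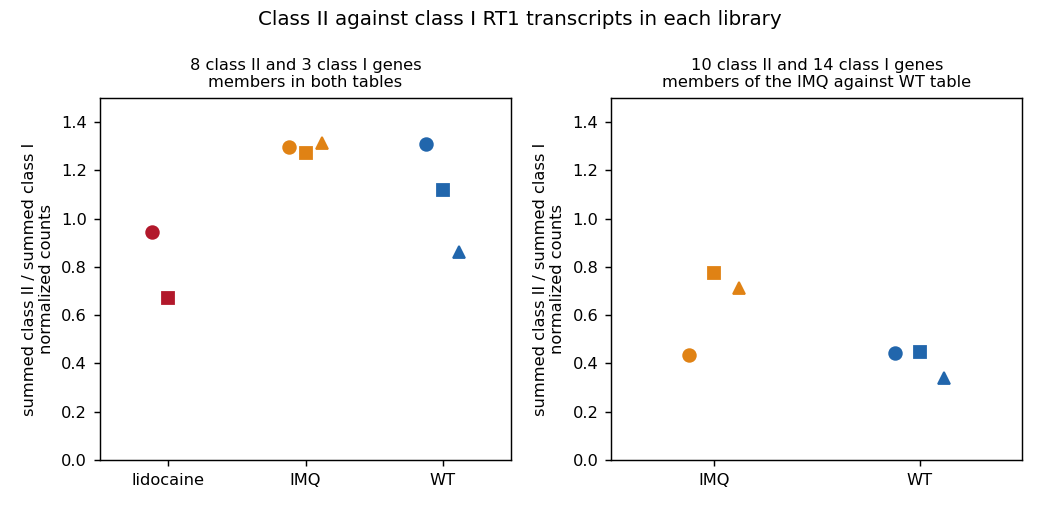
Summed normalized counts of class II genes divided by those of class I genes in each library (point shape gives the library number), over the 8 class II and 3 class I genes in both tables on the left and over the 10 class II and 14 class I genes listed for IMQ against WT on the right. Lidocaine libraries, at 0.943 and 0.670, lie below the IMQ libraries on the left, where each gene was selected by a difference between lidocaine and IMQ. IMQ library 1, at 0.433, lies among the WT libraries on the right.

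IMQ library 1 stood apart from the other IMQ libraries in a subset of RT1 genes. Among the 2959 listed genes with a mean normalized count of at least 50 in IMQ, RT1-CE16 ranked 1 and 3 by how far IMQ library 1 lay below both others, with gaps of 6.90 and 4.24, and RT1-Bb ranked 5. RT1-A1 (gap 1.53), RT1-Ba (1.10) and RT1-CE10 (1.05) ranked 14, 25 and 31. In all, IMQ library 1 lay more than 1 below both others in 1.15% of these genes. For IMQ library 2, RT1-T24-2 ranked 2 by the same measure, with a gap of 3.18.

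A milder order ran through the class II genes. Of the 9 class II genes at that level with Cd74 and Ciita, IMQ library 1 was the lowest in 11 of 11 and IMQ library 2 the highest in 11 of 11. IMQ library 1 was the lowest in 37.3% of all these listed genes and in 47.3% of those higher in IMQ. The median SD between IMQ libraries was 0.575 for the class II genes and 0.378 for the class I genes, beside 0.22 for the class I machinery and 0.157 for all such genes. In WT libraries the median SD was 0.286 for the class II genes, 0.536 for the class I genes and 0.337 for the class I machinery. It was 0.6 for all listed genes with such a mean in WT. Only the class II genes thus spread more in IMQ than in WT by this measure. The sum of the dendritic cell markers had the class II order, at 3154, 4372 and 3658 normalized counts in IMQ libraries 1, 2 and 3. This sum follows mainly Clec10a, at a mean level of 11.56 in IMQ beside 8.11 for Itgax, the next highest. Sums of the class II peptide processing genes (6505, 7524 and 6577) and transcriptional control genes (18427, 23812 and 21768) described below had that order too. Macrophage markers had it in a narrower span, at 38591, 42137 and 39298. T cell markers did not follow the class II order, at 340, 316 and 261. Neither did B cell markers (272, 301 and 253) or sensory neuron markers (273403, 262561 and 262507). Endothelial markers (9829, 7689 and 8978) and satellite glia and Schwann cell markers (61214, 32584 and 44336) had the reverse order, with IMQ library 1 the highest. The part of these cells in the order was not tested.

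**Figure D5:**
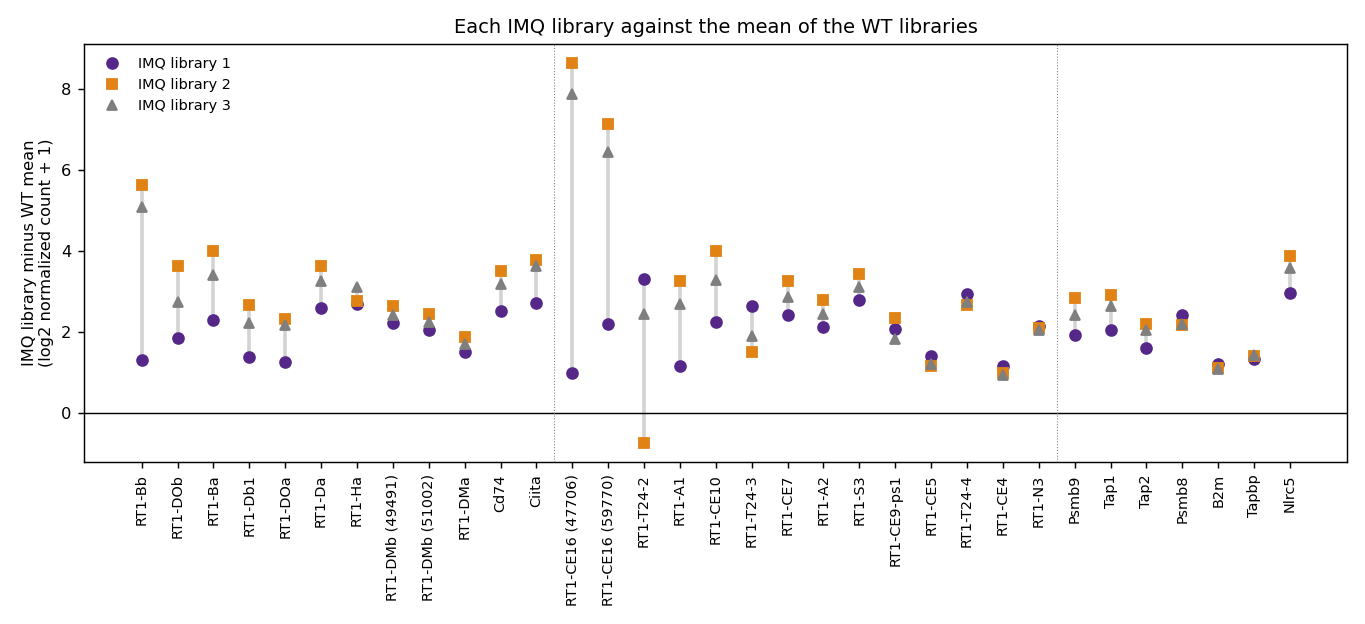
Level of each member in IMQ libraries 1, 2 and 3 minus the mean of the 3 WT libraries, as differences of log2(normalized count + 1), with class II genes, Cd74 and Ciita on the left, class I genes in the middle and the class I machinery and Nlrc5 on the right. Library 1 lies lowest for RT1-CE16, RT1-Bb and RT1-A1, while for RT1-T24-2 library 2 lies lowest, below the WT mean.

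Other genes of the pathway were taken from lists chosen with earlier results of these data known. The counts of these lists stand beside whole tables in which 58.9% of genes were called higher and 37% lower in IMQ against WT, and 87.1% were called lower in lidocaine against IMQ. Of 11 further genes for peptide supply and class I loading, 4 were listed for IMQ against WT. Erap1, which trims peptides in the endoplasmic reticulum, rose by 1.15 ± 0.20 (limma adjusted p = 0.00314). The constitutive proteasome subunits Psmb5, Psmb6 and Psmb7 fell, with differences of -1.11 ± 0.38, -1.10 ± 0.38 and -1.03 ± 0.31 (limma adjusted p = 0.0269, 0.0272 and 0.0179), while the immunoproteasome subunits Psmb8 and Psmb9 rose. Psmb8 replaces Psmb5 and Psmb9 replaces Psmb6 in the immunoproteasome. The SDs of Psmb5, Psmb6 and Psmb7 between WT libraries were 0.76, 0.75 and 0.55. Summed normalized counts of the 4 listed genes were 21010, 35741 and 49523 in WT libraries 1, 2 and 3, beside 17443 to 18872 in IMQ libraries. A switch of subunits was not tested. None of the 11 was listed for lidocaine against IMQ.

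Of 16 genes of transcriptional control and interferon gamma input, 6 were listed for IMQ against WT, and 6 rose. Irf8 and Irf1, interferon regulatory factors, were higher by 3.26 ± 0.25 and 2.49 ± 0.29, and the myeloid factor Spi1 by 2.02 ± 0.24 (limma adjusted p = 0.000123, 0.000589 and 0.000632). In lidocaine relative to IMQ, 2 of the 16 were listed, and Irf8 fell by 1.18 ± 0.22 and Irf1 by 1.02 ± 0.30 (limma adjusted p = 0.00533 and 0.0182). Of 9 genes of class II peptide processing, Ctss, the protease that cuts the invariant chain, rose by 2.70 ± 0.25 and Ifi30, a lysosomal thiol reductase, by 1.86 ± 0.30 in IMQ (limma adjusted p = 0.000271 and 0.00219). Ctss fell by 1.19 ± 0.24 in lidocaine (limma adjusted p = 0.00673), and it was the 1 gene of this list in that table.

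Of 8 MHC-like presenting genes, Mill1 alone was listed, and it rose by 1.33 ± 0.29 in IMQ (limma adjusted p = 0.00624). Of 12 genes for costimulation and T cell co-receptors, 10 were listed and rose in IMQ, where 58.9% of all listed genes were called higher. Cd8a and Cd8b, the co-receptor for class I, were higher by 5.58 ± 0.32 and 5.0 ± 0.67, and Cd4, that for class II, by 3.10 ± 0.43 (limma adjusted p = 4.82e-05, 0.00106 and 0.00126). The mean levels of Cd8a, Cd8b and Cd4 in IMQ were 9.2, 6.6 and 11.2. Cd3e, the highest of the listed T cell markers, was at 6.7 there. Which cells held the Cd4 and Cd8a RNA was not tested. Cd80, a ligand of Cd28, was higher by 3.03 ± 0.41 (limma adjusted p = 0.00108). In lidocaine, 5 of 5 listed genes fell, where 87.1% of all listed genes were called lower, among them Cd8a (-1.32 ± 0.22), Cd40 (-1.55 ± 0.31), Cd80 (-1.46 ± 0.35) and Cd8b (-1.03 ± 0.30) (limma adjusted p = 0.00462, 0.00657, 0.0101 and 0.0185).

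Markers of dendritic cells, macrophages and T cells were higher in IMQ, and those of B cells were split. In IMQ, 5 of 5 listed dendritic cell markers of 10 rose, with a summed normalized count of 3154 to 4372 in IMQ libraries and 510 to 938 in WT libraries, and Siglech was at 0 in all WT libraries. These sums follow mainly Clec10a, at a mean level of 11.56 in IMQ and 9.25 in WT. Of 10 macrophage markers 9 were listed and rose, with sums of 38591 to 42137 in IMQ and 6160 to 8994 in WT. Of 8 T cell markers 5 were listed and rose, with sums of 261 to 340 in IMQ and 50.3 to 96.4 in WT. Of 10 B cell markers 2 were listed. Cd22 rose (3.03 ± 0.45, limma adjusted p = 0.00159) and Cd79a fell (-1.22 ± 0.46, limma adjusted p = 0.0351), and their sums overlapped, at 253 to 301 in IMQ and 119 to 260 in WT. Endothelial markers (3 of 6 listed) and satellite glia and Schwann cell markers (2 of 7) also rose, with sums of 7689 to 9829 and 32584 to 61214 in IMQ, against 2801 to 3301 and 16169 to 17520 in WT. Of 12 sensory neuron markers, 3 were listed and fell, with sums of 262507 to 273403 in IMQ and 408671 to 701348 in WT.

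In lidocaine relative to IMQ, the listed markers of 4 immune cell types fell, in a table of which 87.1% of genes were called lower, so that the counts are close to that share. Of the dendritic cell markers 5 of 5 fell, with sums of 1018 and 1120 in lidocaine libraries and 2893 to 4158 in IMQ libraries. These sums again follow mainly Clec10a, at a mean level of 9.89 in lidocaine. Macrophage markers (5 of 5) had sums of 8747 and 13070 in lidocaine and 24883 to 27893 in IMQ. B cell markers (6 of 6) were at 154 and 173 in lidocaine and at 483 to 558 in IMQ, and T cell markers (5 of 5) at 101 and 75.8 in lidocaine and at 261 to 340 in IMQ. Glul, a satellite glia gene and the 1 listed marker of its list, differed by -1.08 ± 0.45 without passing (limma adjusted p = 0.0518). The part of these cell types in the MHC levels was not tested.

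Lidocaine was set against WT on the 560 genes in both tables, of which 533 passed the filter of a mean normalized count of at least 1. Both comparisons above share the IMQ libraries, and being in both tables was part of the selection here too. Of the 13 members, 11 were higher and 2 lower in lidocaine, and 6 were called higher and 0 lower, where 32.8% of genes were called higher in lidocaine and 4.5% lower. Lidocaine libraries lay above all WT libraries for 9 of the 13, beside 52.7% of the 560 genes. The 6 were RT1-A2 (1.40 ± 0.43), RT1-Da (1.10 ± 0.32), Ciita (1.10 ± 0.37), both RT1-DMb identifiers (1.01 ± 0.29 and 0.99 ± 0.30) and RT1-Ba (0.98 ± 0.31), with limma adjusted p from 0.027 to 0.0498. Their fold differences over WT were 1.97 to 2.64.

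The other 7 members were not called in lidocaine against WT. RT1-CE10 differed by 1.36 ± 0.50, Cd74 by 1.00 ± 0.45 and RT1-A1 by 0.67 ± 0.37, with lidocaine libraries above all WT libraries (limma adjusted p = 0.0643, 0.121 and 0.192). RT1-DMa, RT1-DOb, RT1-DOa and RT1-Db1 differed by 0.48 ± 0.36, 0.26 ± 0.58, -0.06 ± 0.56 and -0.10 ± 0.42, with overlapping libraries (limma adjusted p = 0.329, 0.771, 0.939 and 0.882). None of the 6 calls was made without lidocaine library 1 or without lidocaine library 2, when WT alone gives the spread within groups, nor without WT library 2 or on reads without the authors' normalization factors.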

How the data were processed

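RNA of rat dorsal root ganglia was sequenced in 8 libraries. Ganglia were frozen and ground and RNA was taken up in TRIzol, per the labels' protocols. Per the submitters' processing notes, bcl2fastq, DESeq2 and STAR 2.5.3a were used, with no role stated. The build, annotation, counter and strand setting were not given in the sources used here.

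The authors deposited 2 tables of log2 values per library. Raised to the linear scale, less 1, every library held 1 smallest step, and 100% of its values up to 2000 reads were whole multiples of it (tolerance 0.02 reads), so the scale is log2(normalized count + 1). The inverse of the step gives relative depths of 0.789 to 0.873 in lidocaine, 0.808 to 0.912 in IMQ and 1.09 to 1.34 in WT libraries. Such factors can also take in differences of composition. IMQ values agreed between the tables to 4.98e-09, so all libraries share 1 normalization. No library repeated another: within groups the median chi-square per gene was 2.33 or more, against 0.455 from counting alone. Over the genes listed for IMQ against WT, it was 2.33 to 6.61 between IMQ libraries and 28.5 to 129 between WT libraries.

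Each comparison was fitted with limma 3.58.1 (R 4.3.3, mean-variance trend) on its own 2 groups, over genes with a mean normalized count of at least 1, and adjusted over the whole table. The code was also run on simulated counts, which lacked the selection by difference, so that run does not speak for the calls made here. Members were matched by symbol. The members, gene lists and rule for named genes were chosen with earlier results of these data known. That rule gives each library's values for the regulators, machinery, class II genes, members in both tables and class I genes of largest and smallest difference, and up to 4 genes per list and comparison by adjusted p. Marker lists are given by counts and sums with few genes named, and of the other lists 1 gene that the rule names is not reported here. Alternatives were pseudocounts of 0.1 and 10, no filter, a mean of at least 50, an adjusted p under 0.01, the replicate number as a block, reads without the authors' factors, limma-voom on recovered reads, 1 fit over 3 groups, and each library left out. Protein sequences were not used here, and promoters of Ciita, Nlrc5, RT1-CE7, RT1-CE9-ps1 and RT1-DMb were not analysed here.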

Additional observations from a re-analysis of the deposited data

How the results depend on the processing

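In IMQ against WT, members called higher numbered 32, and 29 to 32 with a library left out, and each kept its direction under every alternative run. In lidocaine against IMQ, 14 members were called lower, and 6 to 14 with a library left out, again with 1 direction throughout. In lidocaine against WT, 6 members were called higher, and 0 to 6 with a library left out, 0 on reads without the authors' factors and 0 at an adjusted p under 0.01. In the fit over all 3 groups RT1-Ba was not called there (limma adjusted p = 0.11).

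Reads without the authors' factors moved the median difference of all listed genes by -0.527 in IMQ against WT and by -0.57 in lidocaine against WT, and that of the members by -0.529 and -0.583. The class I and class II medians were then 1.88 and 2.06 in IMQ against WT, -1.75 for class I in lidocaine against IMQ, and 0.78 and 0.15 in lidocaine against WT. RT1-CE4 and RT1-CE5 lost their calls in IMQ (limma adjusted p = 0.163 and 0.0613), B2m and Tapbp were called at 0.60 and 0.85, and in lidocaine against WT RT1-DOb and RT1-DMa turned to -0.28 and -0.10. With libraries left out, RT1-Db1 ranged from -0.44 to 0.21, RT1-DOa from -0.48 to 0.29 and RT1-DOb from -0.13 to 0.49. None of these was called. With a mean of at least 50, the class II median there was 0.98.

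With libraries left out, the class I and class II medians ranged from 2.11 to 2.70 and from 2.30 to 2.73 in IMQ against WT, from -2.28 to -1.25 and from -2.34 to -1.78 in lidocaine against IMQ, and from 0.85 to 1.69 and from 0.63 to 0.89 in lidocaine against WT. Genes of the whole table called higher in IMQ numbered 2435, and 1279 without the factors, 1276 at an adjusted p under 0.01 and 1563 to 2397 with a library left out. Those called lower numbered 1530, 619 and 869 to 1552 (adjusted p under 0.01, then libraries left out). For lidocaine against IMQ, 58 were higher, and 12 with a mean of at least 50, 18 at 0.01 and 23 to 50 with a library left out, and 675 were lower, and 441, 336 and 364 to 644 in the same order. For lidocaine against WT, 175 were higher, and 80 without the factors, 91 at 0.01 and 36 to 187 with a library left out, and 24 were lower, with 6 to 31. The causes were not tested.

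Whether same-numbered libraries were paired is not stated in the labels, and correlations over so few libraries cannot decide it. Deviations of same-numbered libraries correlated at -0.159, -0.058 and -0.118 for IMQ and WT and at 0.016 and 0.044 for lidocaine and IMQ. With the replicate number as a block, RT1-T24-2 was called in IMQ against WT (limma adjusted p = 0.04). Lidocaine has no library 3, so in its 2 comparisons the block left IMQ or WT library 3 without weight on the difference. RT1-Db1 and RT1-DOa, at 0.17 and 0.037 in lidocaine against WT, had the same differences without WT library 3. In these block fits, RT1-A2 and Cd74 were not called in lidocaine against IMQ (limma adjusted p = 0.183 and 0.0831), and 37 genes were called higher. In lidocaine against WT, RT1-CE10 and Cd74 were called (limma adjusted p = 0.00116 and 0.00448). Ciita and RT1-DMb under ENSRNOG00000051002 were not (limma adjusted p = 0.112 and 0.063).

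RT1-Ha and RT1-Db2 had libraries at 0, so their differences depend on the pseudocount. Fits without 1 of the 2 lidocaine libraries take the spread within groups from the other group alone. Genes outside the 2 tables were not analysed here.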
